A study of Rattus norvegicus with 3 samples.

Results

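HOX genes encode homeodomain transcription factors that give the tissues of the trunk their position along the head-to-tail axis. The genes described here are 10 HOX genes taken to mark the identity of the thoracic cord, found by gene symbol in a table of 12771 entries. Of the 10, 8 have an entry (HOXA7, HOXA9, HOXB3, HOXB5, HOXB7, HOXB8, HOXC6 and HOXC8), while HOXA5 and HOXD8 have none. RNA came from the supernatant left after spinal cord of female rats of the Sprague Dawley strain, aged 3 months, was digested in the cold with a protease and its cells were pelleted. All rats had a laminectomy at T9. In the No-SCI group nothing further was done, and in the SCI group the exposed cord was contused with 250 kdyne. Tissue of about 2 mm was taken at T8, just rostral to the lesion, 24 h later. The labels name 2 libraries for No-SCI and 1 for SCI, although the methods speak of 2 animals for each. The table holds 1 FPKM value per group and entry (read fragments normalized for transcript length and sequencing depth), which is the authors' group value. There is therefore no spread between animals to set against any difference below, no read count behind a value, and no test of any difference was made.

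Mammals carry their HOX genes in the HOXA, HOXB, HOXC and HOXD clusters, each a row of neighbouring genes on a different chromosome. Genes at the same place in different clusters are paralogs and share a number. Low numbers are switched on first and reach far forward, into the hindbrain, and high numbers are kept to the lumbar, sacral and tail levels, so that a trunk tissue carries a combination of numbers that marks its level. In the cord this code sets which motor columns and interneurons form at each level, with HOXC6 known from brachial and HOXC9 from thoracic motor neurons. Cells outside the nervous system, such as fibroblasts and muscle of the trunk, keep a HOX code too. HOX proteins bind DNA with partners of the TALE family (PBX, MEIS and PKNOX), their genes are held silent by Polycomb complexes and open by Trithorax complexes, and retinoic acid switches on the low-numbered ones in the embryo.

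The clusters also hold microRNA genes. Those of the miR-196 family are shown because HOXB8 messenger RNA is a known target of miR-196, and because their genes lie in the 3 clusters that hold the 8 listed genes. The mature sequences below are from RefSeq on the GRCr8 rat assembly, with the seed (bases 2 to 8) in capitals. The 3 share the seed AGGUAGU and differ at 1 of 22 bases, base 12. The table of gene values has 0 entries named for a microRNA, so their levels were not analysed here, and no target site was searched.
rno-miR-196a-5p, between Hoxc10 and Hoxc9, chr7:135988900-135988921, plus strand: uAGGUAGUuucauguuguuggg
rno-miR-196b-5p, between Hoxa9 and Hoxa10, chr4:82661149-82661170, minus strand: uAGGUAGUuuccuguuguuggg
rno-miR-196c-5p, between Hoxb13 and Hoxb9, chr10:81727561-81727582, plus strand: uAGGUAGUuucguguuguuggg

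In No-SCI the listed genes spanned 13.4-fold in level. HOXB7 was the highest with 67.5 FPKM, at percentile 78.9 of all entries. HOXC8 had 40.2 FPKM, HOXC6 had 24.4 and HOXA7 had 23.9. These 4 genes were above the median of all entries, which was 17.2 FPKM. The other 4 were below it, with 9.74 FPKM for HOXB3, 8.19 for HOXA9, 7.99 for HOXB8 and 5.04 for HOXB5, the last at percentile 21.1. After SCI the span was 18.4-fold, with HOXB7 again at the top (71.9 FPKM) and HOXB5 again at the bottom (3.91 FPKM). HOXB8 and HOXB3 then stood at 16.3 and 16.2 FPKM, close to the median of all entries, 15.6. HOXA9 was at 9.81 FPKM after SCI. HOXB3 is the one member from a paralog group whose forward limit lies in the hindbrain, and all other members belong to groups 5 to 9.

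**Figure D1:**
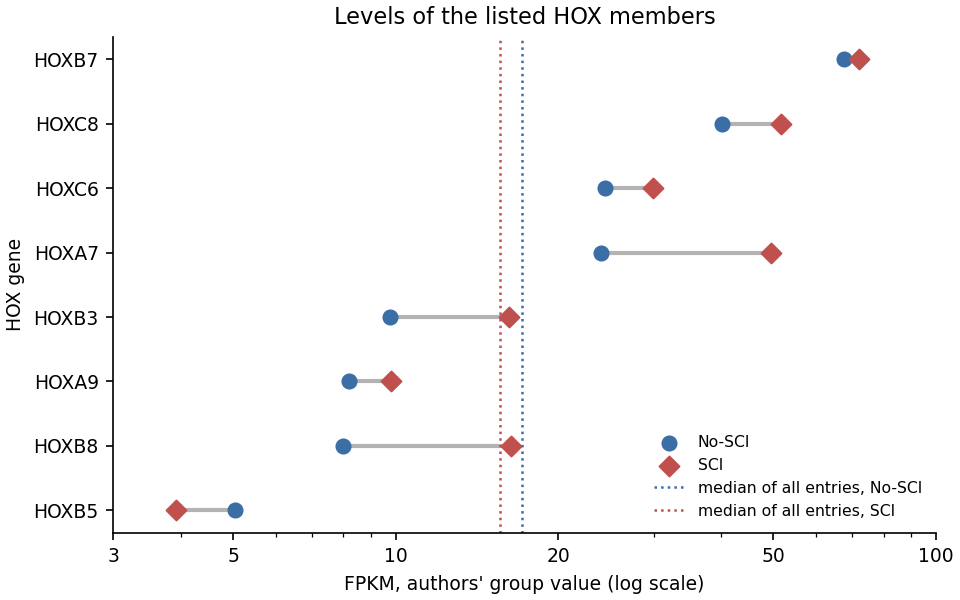
Authors' group FPKM (x axis, log scale) of the 8 listed HOX members (y axis) in No-SCI (circles) and SCI (diamonds), with dotted lines at the median of all entries in each group. HOXB5 alone is lower in SCI, and HOXA7, HOXB8 and HOXB3 have the longest connecting lines.

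Several of these values rest on symbols or gene models that are not fully separate. The values of HOXA7, HOXA9 and HOXB3 are written with 7 significant digits in at least 1 group, against the 6 that Cuffdiff prints for 1 estimate, as are 43.4% of the No-SCI values of all entries. Such a value may combine several entries of a symbol, and the levels of these genes relative to others depend on their number. In RefSeq, Hoxa9 is also an older synonym of Hoxa7, and Hoxc8 of Hoxc9. Outside the members, Hoxa10 is also a synonym of Hoxa11. The Hoxc6 gene model overlaps those of Hoxc4 and Hoxc5, and that of Hoxb5 overlaps the non-coding gene Hoxb5os. The Hoxb3 model overlaps LOC102550580, and that of Hoxa5, which has no entry, overlaps Hoxa3 and Hoxaas3. How reads in such overlaps were divided is not given in the sources used here. No listed HOX gene is entered 2 times, and 0 of the 22 listed HOX genes share both values with another entry, as 29 entries of the table do.

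Set along the clusters, a member held the highest level in 3 of the 4. Of the 39 mammalian HOX genes 22 have an entry, the 8 members and 14 others. The highest listed gene of the HOXA cluster was HOXA7, that of the HOXB cluster HOXB7 and that of the HOXC cluster HOXC8, in both groups. In No-SCI HOXA7 was 2.88 times as high as the next gene of its cluster, HOXA2. HOXB7 was 1.67 times as high as HOXB2, and HOXC8 1.65 times as high as HOXC6. After SCI these ratios were 2.46, 1.14 and 1.73, so the lead of HOXB7 over HOXB2 was small there. Within the HOXB cluster the No-SCI level went down on both sides of HOXB7, to 24.6 FPKM in HOXB6 and 5.04 in HOXB5 on one side, and to 7.99 in HOXB8 and 1.59 in HOXB9 on the other. A further high value stood at HOXB2, at 40.4 FPKM in No-SCI against 63.1 in SCI. In the HOXC cluster HOXC4 had 18.0 FPKM, HOXC5 2.41, HOXC6 24.4, HOXC8 40.2, HOXC9 10.2 and HOXC10 2.92 in No-SCI. HOXA6 had 7.22 FPKM and HOXA10 5.11 in No-SCI, on either side of HOXA7 and HOXA9. The levels of the 22 genes were ordered alike in both groups (Spearman's rho of 0.92 across genes, which are not independent replicates and share the same 2 group estimates). The 8 members made up 58.3% of the summed FPKM of the listed HOX genes in No-SCI and 57.7% after SCI.

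**Figure D2:**
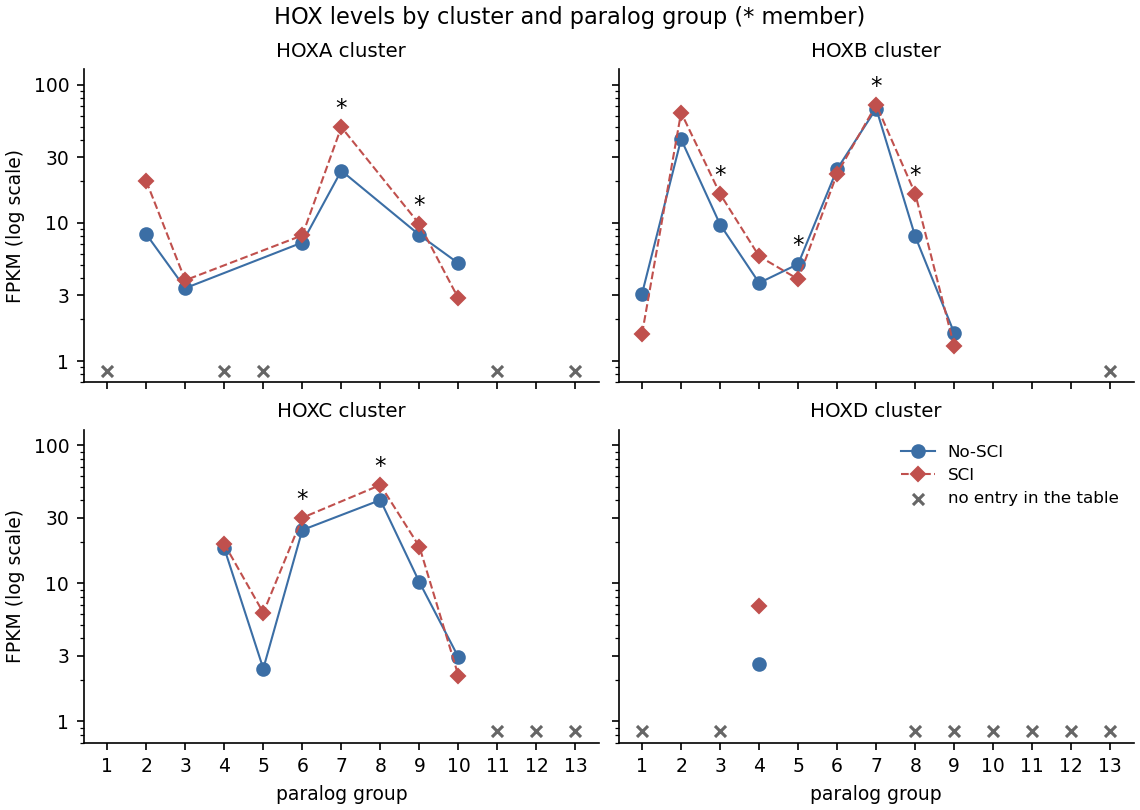
Authors' group FPKM (y axis, log scale) of HOX genes by paralog group (x axis) in each of the 4 clusters, No-SCI as circles and solid lines, SCI as diamonds and dashed lines, with asterisks over members. Crosses at the foot mark HOX genes with no entry in the table, which is not a value of 0; the peaks lie at HOXA7, HOXB7 and HOXC8, and 8 of 9 HOXD genes have no entry.

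Which HOX genes have an entry also follows the axis. Paralog groups 5 to 9 have 12 of 15 genes in the table and groups 1 to 4 have 8 of 12, whereas groups 10 to 13, the lumbar and sacral ones, have 2 of 12 (HOXA10 and HOXC10). The HOXB cluster has 9 of 10 genes in the table and the HOXD cluster 1 of 9, HOXD4, which leaves HOXD8 among the absent ones. HOXA5 and HOXA4 are the 2 genes absent from the run between HOXA2 and HOXA10. Of 13 genes that mark the forebrain, midbrain or front hindbrain or act there, such as OTX2, EMX2 and EN1, 12 have no entry. The exception was ZIC1, also a gene of the dorsal cord and of the meninges, at 2.13 FPKM in No-SCI against 4.70 in SCI. How entries came to be left out of the table is not given in the sources used here, so an absent gene cannot be read as a gene without RNA. High levels were not particular to the members. HOXB2, of paralog group 2, ranked 2 among the listed HOX genes in both groups. It was just above HOXC8 in No-SCI (40.4 against 40.2 FPKM) and further above it in SCI (63.1 against 51.7 FPKM). HOXB6 and HOXC4 were above at least 4 of the 8 members in both groups, and HOXB6 ranked 4 in No-SCI, above HOXC6 and HOXA7.

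After SCI 7 of the 8 listed members had a higher value than in No-SCI and 1 a lower one. HOXA7 had 23.9 FPKM in No-SCI and 49.5 in SCI, 2.07-fold or 1.05 on the log2 scale. HOXB8 had 7.99 and 16.3 FPKM, 2.04-fold or 1.03 on the log2 scale. Both lie just past 2-fold, and the next member, HOXB3, was at 1.67-fold (9.74 to 16.2 FPKM, log2 ratio 0.74). With 1 FPKM added to all values the log2 ratio of HOXB8 was 0.95 and only HOXA7 remained past 2-fold. The other members differed less between the groups, which are different animals. HOXC8 went from 40.2 to 51.7 FPKM (log2 ratio 0.36), HOXC6 from 24.4 to 29.9 (0.30) and HOXA9 from 8.19 to 9.81 (0.26). HOXB7, the most abundant, differed least, with 67.5 and 71.9 FPKM and a log2 ratio of 0.09. HOXB5 was the exception in direction, with 5.04 FPKM in No-SCI against 3.91 in SCI, which is −0.37 on the log2 scale. Whether any of these differences exceeds the spread between animals cannot be said. In a supernatant of bulk tissue, the number of cells of a type, their RNA per cell and the share of it that reached the supernatant cannot be told apart.

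Read against the whole table, the members stood toward the higher side. Their median log2 ratio was 0.33, that of all entries was −0.12, and relative to the latter the members' median was 0.45. Among all entries 43.7% were higher after SCI and 56.3% lower. Past 2-fold and higher were 2 of the 8 members, against 7.96% of all entries, and past 2-fold and lower were 0 of the 8, against 12.1%. At 1.3-fold, the minimum that the authors applied beside their test, 3 of the 8 were higher, against 24.6% of all entries, and at 1.5-fold the same number, against 16.9%. With 8 genes, these are descriptions of a short list and not a test of it. The log2 ratio of HOXA7 was at percentile 92.6 of all entries, that of HOXB8 at 92.4 and that of HOXB3 at 87.5. HOXB7, at percentile 61.3, and HOXB5, at 36.3, lay near the middle. The summed FPKM of the 8 members was 187 in No-SCI and 249 after SCI, 1.33-fold. HOXA7 held the largest part of that difference, 25.6 FPKM.

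**Figure D3:**
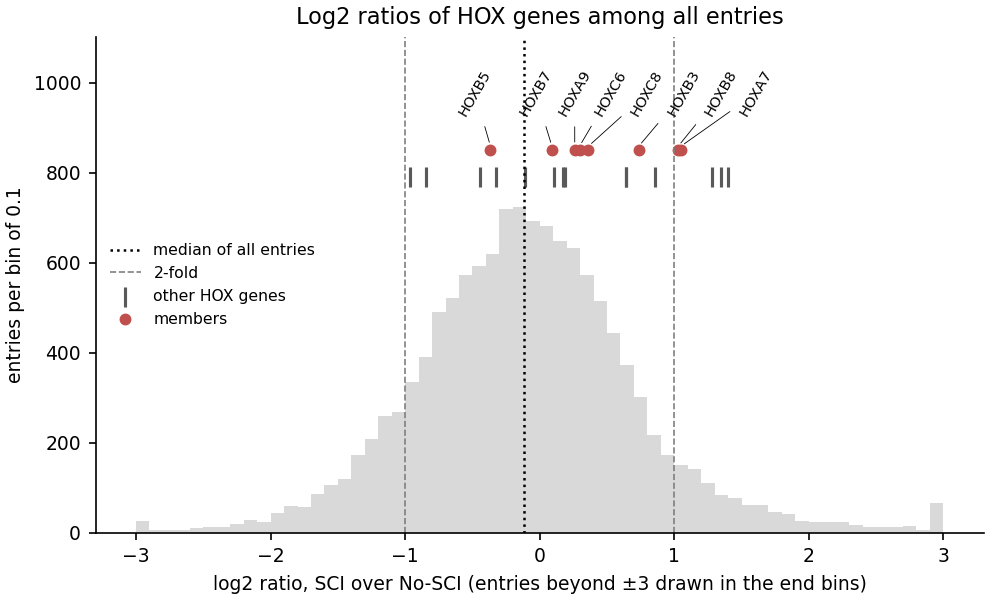
Number of entries (y axis) by log2 ratio of SCI over No-SCI (x axis, bins of 0.1), with the 8 listed members as labelled points and the other 14 listed HOX genes as ticks above. The dotted line is the median of all entries (−0.12) and the dashed lines mark 2-fold; HOXA7 and HOXB8 lie just past the upper one.

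Paralogs and neighbours of the members did not all share their direction. Among the 14 other listed HOX genes 9 were higher after SCI and 5 lower, and their log2 ratios had a median of 0.18. Past 2-fold were HOXD4 (2.61 to 6.87 FPKM, log2 ratio 1.40), HOXC5 (2.41 to 6.13 FPKM, 1.35) and HOXA2 (8.30 to 20.1 FPKM, 1.28), all of them higher after SCI and all below the 4 abundant members in level. HOXC9, the thoracic paralog of HOXA9, stood at 10.2 and 18.5 FPKM (log2 ratio 0.86). HOXB2 and HOXB4 had log2 ratios of 0.64 each, HOXA3 of 0.19, HOXA6 of 0.17 and HOXC4 of 0.10. The lower ones were HOXB1 (3.08 to 1.58 FPKM, log2 ratio −0.96), HOXA10 (5.11 to 2.84 FPKM, −0.85), HOXC10 (−0.45), HOXB9 (−0.32) and HOXB6 (24.6 to 22.8 FPKM, −0.11). After subtraction of 1, the lowest value of the table, from every value, HOXB1, HOXA10 and HOXB9 were past 2-fold and lower. Their log2 ratios were then −1.84, −1.16 and −1.12. HOXD4, HOXC5 and HOXA2 stayed past 2-fold and higher in that setting. The sign of HOXB6 turns to 0.01 when the median of all entries is centred at 0. Both listed genes of groups 10 to 13 were thus lower after SCI, as were 56.3% of all entries. In groups 5 to 9, 9 of 12 genes were higher, and in groups 1 to 4, 7 of 8, against 43.7% of all entries. The median log2 ratio was 0.64 in groups 1 to 4, 0.28 in groups 5 to 9 and −0.65 in groups 10 to 13. The last rests on 2 genes, of which HOXC10 was low in both groups, at 2.92 FPKM in No-SCI and 2.15 in SCI.

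Paralogs within a number differed from each other as well. In group 7 HOXA7 was higher by 1.05 and HOXB7 by 0.09 on the log2 scale. In group 8 HOXB8 was higher by 1.03 and HOXC8 by 0.36. In group 5 HOXC5 was higher by 1.35, whereas HOXB5 had a log2 ratio of −0.37. In group 9 HOXC9 and HOXA9 were higher by 0.86 and 0.26, and HOXB9, close to the lowest value in the table with 1.59 and 1.27 FPKM, had −0.32. The neighbours HOXB7 and HOXB8, adjacent in the cluster, thus had log2 ratios of 0.09 and 1.03.

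The DNA-binding partners of HOX proteins did not move as 1 group. Of 8 TALE genes examined 8 have an entry, 3 higher and 5 lower after SCI, and the median of their log2 ratios was −0.26. MEIS1 had 28.8 and 6.14 FPKM (log2 ratio −2.23), which makes it the only TALE gene past 2-fold in that direction. MEIS3 went from 35.3 to 78.1 FPKM (log2 ratio 1.14), and PBX4 from 2.26 to 5.55 FPKM (2.45-fold). MEIS2 was the most abundant in No-SCI, with 60.1 FPKM against 38.0 in SCI (log2 ratio −0.66). The MEIS genes, which code for cofactors that also act without HOX proteins, thus differed from each other in direction.

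The genes of the complexes that keep HOX genes silent or open were split in direction. Of 26 Polycomb genes 23 have an entry, 11 higher and 12 lower, and the median of their log2 ratios was −0.09, or 0.03 with the median of all entries centred at 0. EZH1, a methyltransferase of Polycomb repressive complex 2, had 57.0 FPKM in No-SCI and a log2 ratio of −1.25, and JARID2, which helps to recruit that complex, went from 15.4 to 6.71 FPKM. CBX8, a chromodomain subunit, went from 2.15 to 4.46 FPKM (1.06). The Polycomb genes with the largest mean of both groups, RBBP7 and PCGF5, had log2 ratios of 0.09 and 0.61. Of 11 Trithorax and related genes 10 have an entry, 6 higher and 4 lower, with a median of 0.16, or 0.28 above the median of all entries. KDM6B, a demethylase that removes the Polycomb mark, was the only one of them past 2-fold, at 3.59 FPKM in No-SCI and 11.7 after SCI (log2 ratio 1.70). DPY30 and ASH1L, the most abundant, had log2 ratios of 0.41 and −0.25.

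Among 11 regulators that set HOX domains in the embryo 5 have an entry, 4 of them higher after SCI. ALDH1A2, which makes retinoic acid, stood at 4.40 and 61.1 FPKM, a 13.9-fold difference. The retinoic acid receptor genes RARA and RARB were 3.05-fold (18.9 to 57.6 FPKM) and 2.30-fold (10.7 to 24.6 FPKM) higher, and RARG was 1.15-fold higher. GDF11, a ligand that sets the trunk-to-tail transition, was at 29.4 and 25.4 FPKM. The CDX and CYP26 genes of this list have no entry. ALDH1A2 also stands on the list of meningeal fibroblast markers.

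Markers of other cell types moved between the groups as well, and some with the direction of the HOX genes. The marker lists were chosen with earlier results of these data known, so their counts are not independent of those results. All 15 meningeal fibroblast markers were higher after SCI, against 43.7% of all entries, and 14 were past 2-fold, against 7.96%. Their log2 ratios had a median of 2.56, and their summed FPKM went from 87.4 to 1067. OSR1 and CRABP2 had the largest log2 ratios of them, 5.43 and 4.46, and CRABP2 and DCN were the most abundant after SCI. None of the 15 was exactly at the lowest value of the table, 1, in either group. In No-SCI, however, FOXD1 (1.08 FPKM), FOXC1 (1.24), TWIST1 (1.42) and COL1A1 (1.87) lay close to it. Subtraction of 1 from every value moved the log2 ratio of FOXD1 from 2.24 to 5.69 and that of FOXC1 from 2.93 to 5.13. The size of such ratios therefore depends on the floor. Skeletal muscle markers went the other way, with 9 of 9 lower (2 of 11 have no entry), against 56.3% of all entries. Their sum was 399 FPKM in No-SCI and 34.2 after SCI. MYH1 and MYH2 share the same pair of values, so they count 2 times in the 9 and in the sums. After subtraction of 1 from every value MYH4 had the same log2 ratio as both, −3.24, so it may not be separate from them. TNNT3 and MYL1 were the most abundant muscle markers in No-SCI. The neuron markers were lower in 9 of 9 cases (median log2 ratio −0.60), and NEFL and SYT1 were past 2-fold. Motor neuron markers, which carry a HOX code by level, were mostly absent: CHAT, ISL1, LHX3, MNX1 and SLC5A7 have no entry, and SLC18A3 (1.54 and 1.48 FPKM) and PRPH (20.3 and 22.1 FPKM) differed little. Of the defining genes of the labelled tissue some are listed and some are not. The oligodendrocyte markers summed to 46701 FPKM in No-SCI, of which MOBP alone held 44200.3 and CNP 1887, but the myelin gene MBP has no entry. Those were lower after SCI in 6 of 6 cases (median log2 ratio −1.58), the astrocyte markers in 4 of 4 (−1.43), the ependymal ones in 3 of 3 (−0.74) and the microglia ones in 5 of 7 (−0.42). The astrocyte genes GFAP, AQP4, S100B and SLC1A3 and the neuron genes SNAP25 and NEFM have no entry. Endothelial and mural markers had medians of 0.06 and 0.08, and CDH5 was past 2-fold with a log2 ratio of 1.61. The part of fibroblast, muscle or neural RNA in the HOX values was not tested.

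**Figure D4:**
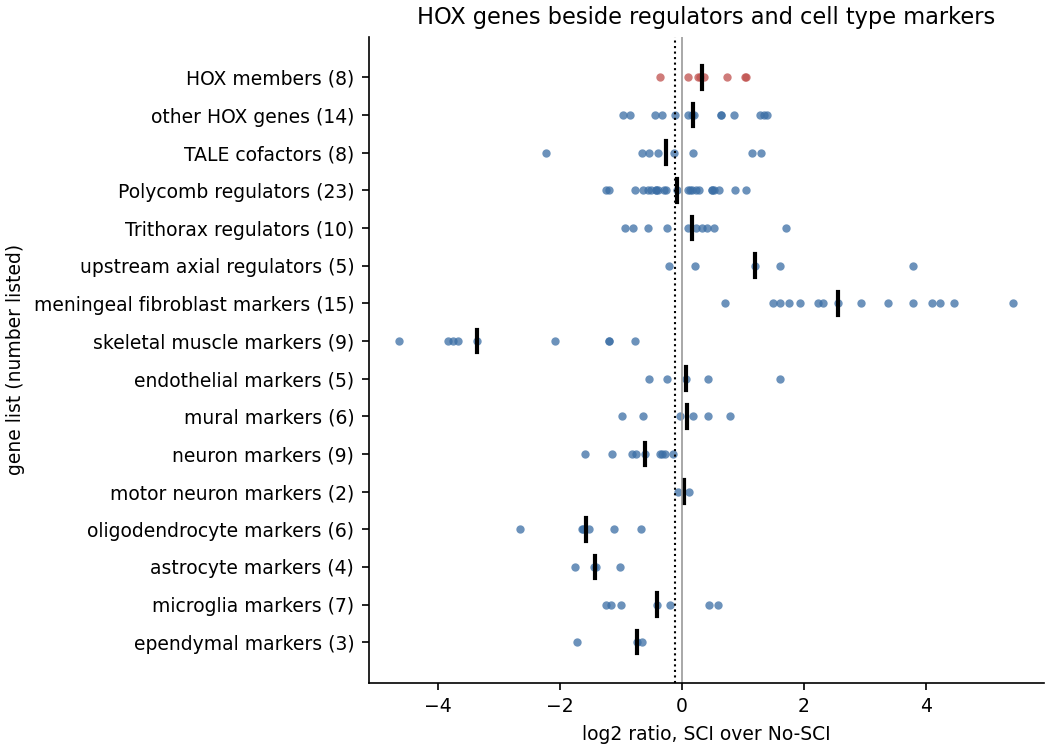
Log2 ratio of SCI over No-SCI (x axis) of each listed gene in the HOX members, the other HOX genes, 4 lists of HOX partners and regulators and 10 lists of cell type markers (y axis, number of listed genes in parentheses), with a black bar at each list's median and a dotted line at the median of all entries. The HOX members lie between the meningeal fibroblast markers, far to the right, and the muscle, oligodendrocyte and astrocyte markers, to the left.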

How the data were processed

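Stranded total RNA libraries were made from the supernatant with ribosomal RNA removed. Per the methods and the submitters' processing notes, the authors downsampled the reads, aligned them to rn6 with STAR 2.5.4b and ran Cuffdiff of cufflinks 1.3.0 with upper quartile scaling. Each deposited FPKM value is an estimate by the authors for a whole group, and the lowest value is 1. Whether a constant of 1 had been added to every deposited value was not tested. After subtraction of 1 from every value, MYH1, MYH2 and MYH4 had the same log2 ratio, −3.24. As deposited, it was −1.20 for MYH1 and MYH2 and −0.77 for MYH4. If such a constant is in the values, the printed log2 ratios of low values are smaller in size than without it. The p-value, q-value, fold change and log2 columns hold the authors' own comparison and were not used. The table gives no reads per library or gene, so the number of reads behind a single value is unknown and no interval could be computed, and 0 columns were left without a group.

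Log2 ratios (SCI over No-SCI, no pseudocount) and percentiles were computed over the 12771 entries. Called means past 2-fold. For the 13 symbols entered 2 times the larger entry was used. All members and listed HOX genes are named, and from other lists genes past 2-fold and the 2 with the largest mean of both groups, with some left to counts. Some genes of the lists are not reported here. The members and lists were chosen with earlier results of these data known. Names of 22 listed HOX genes matched RefSeq (GRCr8), whose gene coordinates are not printed, since the builds differ, and served for names, neighbours and overlaps. Alternatives were pseudocounts of 1 and 0.1, subtraction of 1, 3 scalings, a minimum mean of 5 FPKM, other folds, the mean, and all listed HOX genes. Leaving out values with over 6 digits was chosen after seeing the data. The code was checked on simulated data with known changes, which says nothing about the spread between animals. Tools were Python 3.11.15 with pandas 2.3.3, numpy 2.4.6, matplotlib 3.10.9 and scipy 1.17.1.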

Additional observations from a re-analysis of the deposited data

How the results depend on the processing

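A replicate could not be left out, because the table holds 1 value per group, and no paired analysis was possible because no value of a single library is given. The median log2 ratio of the members stayed positive under every alternative tried, from 0.30 without values of 7 digits to 0.45 with median centring. That of all listed HOX genes, members and others, was 0.28. No member changed sign under any alternative. With a pseudocount of 1 the members past 2-fold and higher numbered 1. With a mean of at least 5 FPKM, HOXB5 drops out and the members that were lower numbered 0. Without values of 7 digits 5 members are left, of which 4 were higher and 1 was past 2-fold. In the last 2 settings fewer genes enter by construction. What depth limits could not be worked out, since the table gives no reads per gene.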
